A study of Vitis vinifera with 45 samples.

Results

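The 200 transcripts described here were, by their deposited TPM, the steadiest abundant transcripts of berry skin over every graft type and stage of the series. They were taken by rule from the deposited table of TPM, a level scaled for transcript length and to the same total, 1000000, in each library. Of 29958 transcripts listed, 3824 had at least 20 TPM in each of the 45 libraries and are called candidates below. The 200 candidates with the lowest standard deviation (SD) of log2(TPM + 1) over the 45 libraries were kept and are called stable transcripts. Because that SD chose them, their levels and spreads are given as a description, and no test is used to support their stability.

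The series followed the skin of berries from the seedless table grape Crimson Seedless (CS), a cultivar of *Vitis vinifera*, to ask how grafting affects skin coloration. Berries came from graft-free CS, from self-grafted CS/CS, and from CS scions on the rootstocks 101-14 (101-14MG in the labels), 110R and SO4, and the last 3 types are called heterografts. The skins were taken at 3 stages, which the labels call DAF45, DAF75 and DAF105 for the number of days after flowering, and each of the 15 groups had 3 biological replicates. In the sample titles the self-graft is "Crimson" and the graft-free vine "Crimson Seedless", and which is which is told only by a note of the study. The scion was CS in all groups, so the skin measured was of the same cultivar throughout, and all combinations grew at the same site under the same management. Berries were picked in randomized blocks, and whether a replicate number stands for a block is not given in the sources used here.

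A reference gene is a transcript whose level is taken as constant, so that others can be expressed relative to it in RT-qPCR. No transcript is constant in itself, and such genes are chosen by their spread over the samples to be compared. Berry skin is a demanding case, because at veraison, the onset of ripening, the skin softens, gains anthocyanin pigments and turns over much of its mRNA. Level in a bulk library is relative to all other mRNA of the sample. Fewer cells of a type and less RNA per cell therefore cannot be told apart.

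Libraries held 16387269 to 20765329 counts in total (median 18442527). The study pairs names of flavonoid genes with transcript identifiers, and whether each identifier belongs to the gene named was not checked here. Under those pairings, F3H (flavanone 3-hydroxylase) had 130 to 968 TPM in every library. CHI (chalcone isomerase) ranged from 2.29 to 20081 TPM, LDOX from 0.849 to 166 TPM and the CHS transcript from 0 to 109 TPM. Markers of cuticle, seed and green tissue were not analysed here, because no transcript identifier, beyond those of the RT-qPCR genes, could be paired with a gene name. For the same reason the stable transcripts are given by their identifiers alone, and what their products do is not described.

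The stable transcripts varied little and sat at modest levels. Their SD ranged from 0.111 to 0.174 on the log2 scale, with a median of 0.159, against a median of 0.365 and a highest value of 2.87 over all candidates. The highest library was 1.38 to 1.92 times the lowest library, with a median of 1.62, and the median ratio over all candidates was 2.74. In each of the 200 this ratio stayed under 2, as it did in 778 of the 3824 candidates. As a percentage of the mean, the SD of their TPM was between 7.82% and 13.0%. The lowest count of any stable transcript in any library was 237.

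Mean levels of the stable transcripts ran from 23.3 to 488 TPM with a median of 58.3 TPM, below the candidate median of 79.0 TPM. Of the 1014 candidates with a mean of 20 to 50 TPM, 87 were stable transcripts (8.58%). That share was 5.07% at 50 to 100 TPM (67 of 1322), 4.73% at 100 to 200 TPM (37 of 782) and 1.27% at 200 TPM or more (9 of 706). The share fell at each step up in level, but the minimum of 20 TPM in every library bears on this. A candidate with a low mean cannot drop far below that mean, while one with a high mean can. The median SD of candidates was 0.273 at means of 23.3 to 48.6 TPM and 0.536 at means from 152 TPM up. The shares therefore cannot separate level from the rule that chose the candidates. The 200 together made up 1.47% to 1.76% of all TPM in a library.

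**Figure D1:**
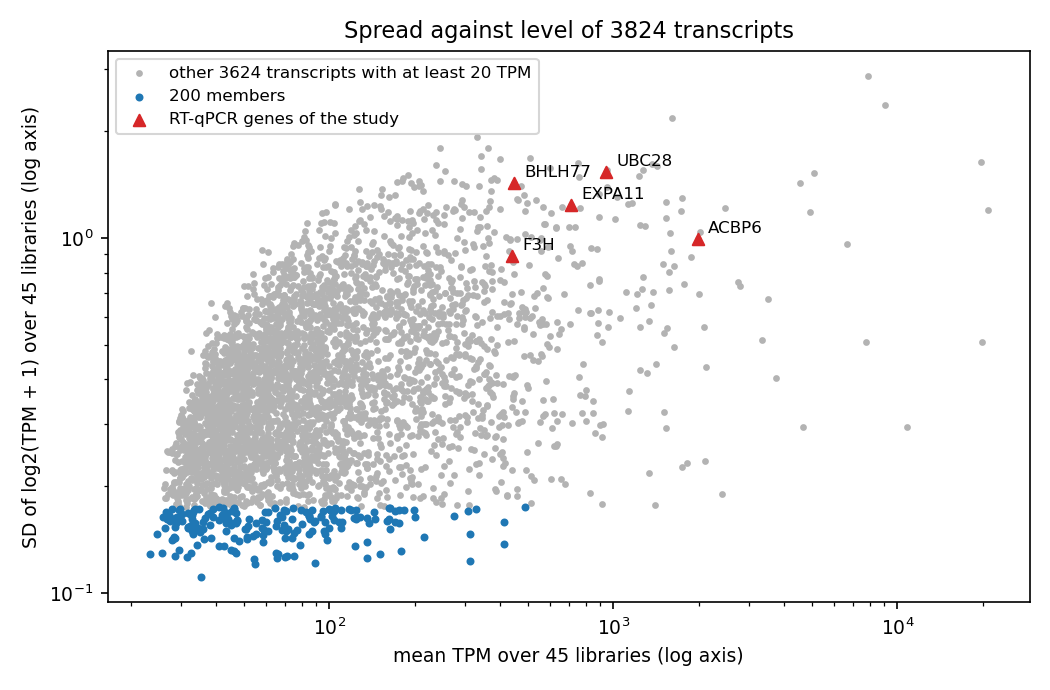
SD of log2(TPM + 1) over the 45 libraries against mean TPM, both on log axes, for the 200 stable transcripts (blue), the other 3624 candidates (grey) and the 5 candidates among the genes measured by RT-qPCR (red). The stable transcripts lie at an SD of 0.174 or less and at means of 23.3 to 488 TPM, and the red points lie at 0.892 or more.

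The transcript with the lowest SD, VIT_01s0011g06030 (SD 0.111), had a mean of 35.4 TPM. It had a lowest, median and highest level of 28.3, 34.8 and 39.1 TPM at DAF45 (n = 15), 33.1, 35.4 and 40.8 TPM at DAF75, and 30.9, 36.3 and 39.4 TPM at DAF105. The 3 stages overlapped over most of their range. Within stages CS/CS stood highest at DAF75, at 40.5, 40.8 and 40.8 TPM, above CS at 33.1, 33.8 and 34.2 TPM. The lowest library of all was CS/101-14 at DAF45, replicate 2.

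VIT_18s0001g07280 (SD 0.121) was the second steadiest, with a mean of 54.5 TPM and a range of 43.4 to 64.3 TPM. Its median rose little between stages, from 53.7 TPM at DAF45 to 53.9 TPM at DAF75 and 56.7 TPM at DAF105. Its lowest library was CS at DAF45, replicate 2, and its highest CS/CS at DAF75, replicate 1. VIT_11s0016g03070 (SD 0.121) averaged 89.0 TPM and was lower in CS at DAF75 (75.6, 79.0 and 81.6 TPM) than in CS at DAF105 (85.6, 93.8 and 99.8 TPM), while CS/101-14 ran the other way, from 86.3, 86.5 and 86.6 TPM to 74.7, 80.1 and 80.2 TPM. In both graft types the 2 stages did not overlap, so a small SD over all libraries did not mean that groups were alike.

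VIT_03s0038g04270 (SD 0.123) was the steadiest transcript above 200 TPM, with a mean of 312.7 TPM. Its lowest, median and highest levels were 291, 309 and 337 TPM at DAF45, 292, 325 and 378 TPM at DAF75 and 255, 290 and 334 TPM at DAF105. The median was highest at DAF75, and the 3 stages overlapped. In CS it was at 349, 356 and 378 TPM at DAF75 and at 269, 270 and 272 TPM at DAF105, with no overlap. In CS/110R it was at 296, 297 and 321 TPM at DAF75 and 314.5, 331 and 334 TPM at DAF105, with 1 library inside the range of the other stage.

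The next 6 in order had means of 31.4 to 135 TPM. VIT_08s0058g00820 (SD 0.126) had the smallest ratio of highest to lowest library of all 200, at 1.38, from 115 to 159 TPM, with medians of 139, 141 and 123 TPM at DAF45, DAF75 and DAF105. Its extremes were both at DAF105, in CS (replicate 1) and in CS/110R (replicate 1). VIT_09s0002g00780 (SD 0.125) had similar medians of 54.5, 54.8 and 53.9 TPM at the 3 stages, but graft types differed in course. In CS/CS it fell from 48.6, 56.4 and 64.2 TPM at DAF75 to 44.1, 47.5 and 48.1 TPM at DAF105. In CS/110R it rose from 53.1, 54.8 and 55.4 TPM to 56.8, 59.8 and 64.5 TPM over the same step. The 2 stages did not overlap in CS/CS or in CS/110R, and they overlapped in the other graft types. VIT_09s0002g02500 (SD 0.126) moved mainly at DAF45, where it was at 53.1, 57.8 and 65.0 TPM in CS and at 74.7, 79.4 and 80.8 TPM in CS/110R. VIT_08s0007g01140 (SD 0.126) was lowest in CS at DAF75 (55.8, 58.9 and 61.7 TPM) and highest in CS/CS at that stage (73.7, 80.1 and 83.0 TPM). VIT_06s0004g02820 (SD 0.127) had medians of 32.0, 32.7 and 29.4 TPM, and VIT_06s0004g00100 (SD 0.127) had medians of 71.5, 76.5 and 75.9 TPM. In VIT_09s0002g02500 and VIT_08s0007g01140 the 2 groups named did not overlap.

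**Figure D2:**
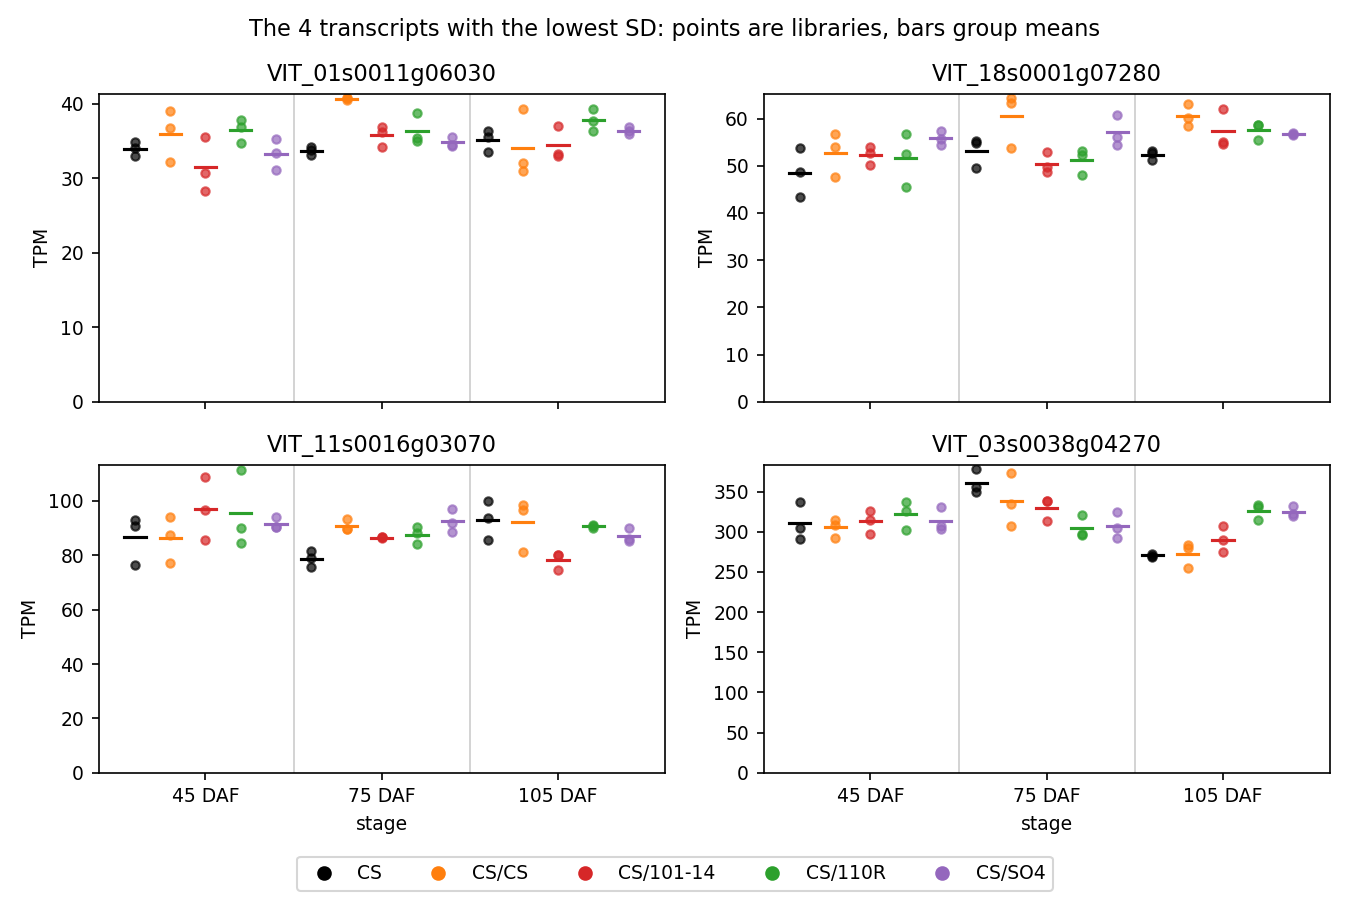
TPM of the 4 transcripts with the lowest SD in each library (points) with group means (bars, n = 3), by stage and graft type, on axes that start at 0. In VIT_03s0038g04270 the CS libraries drop from 349 to 378 TPM at DAF75 to 269 to 272 TPM at DAF105.

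The 5 stable transcripts with the highest mean level were VIT_09s0002g02600 (488 TPM), VIT_13s0019g00550 (413 TPM), VIT_13s0019g04230 (410 TPM), VIT_16s0039g02780 (328 TPM) and VIT_14s0066g01530 (313 TPM). Their SDs were 0.174, 0.137, 0.158, 0.172 and 0.147, so that VIT_13s0019g00550 joined a high level to a small spread. VIT_09s0002g02600 had medians of 499, 438 and 538 TPM at DAF45, DAF75 and DAF105, and CS/110R at DAF105 held its highest levels, at 599, 623 and 649 TPM. VIT_13s0019g00550 had medians of 429, 404 and 394 TPM at the same stages. In CS it was highest at DAF75 (477, 484 and 501 TPM) and lowest at DAF105 (342, 342 and 377 TPM), which spans its whole range. VIT_13s0019g04230 differed mainly between graft types, with a median over 9 libraries of 373 TPM in CS and 440 TPM in CS/SO4. VIT_14s0066g01530 was at 362, 363 and 443 TPM in CS/CS at DAF75, against 259, 279 and 297 TPM in CS, and CS/SO4 at DAF45 was also high, at 312, 376 and 383 TPM.

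Spread changed only gradually where the list ends. The last 3 inside were VIT_17s0053g00320, VIT_09s0002g02600 and VIT_02s0025g04400 with SDs of 0.1742, 0.1743 and 0.1744. The first 3 outside were VIT_15s0021g00500, VIT_07s0031g02490 and VIT_05s0020g03720 with SDs of 0.1746, 0.1749 and 0.1752. The threshold thus passes through a dense run of transcripts and separates no class.

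As a further description, the rule was applied to 2 of the 3 replicates of every group and the SD was then read in the replicate left out (n = 15 libraries). The 200 transcripts chosen in that way shared 162, 161 and 170 with the list over all libraries when replicates 1, 2 and 3 were left out. In the replicate left out, their median SD was 0.165, 0.172 and 0.157, against 0.366, 0.385 and 0.370 over all candidates. Of each 200, 198 had an SD within the lower quartile of candidates in the replicate left out, and 0 had an SD above the candidate median. The order was less well kept than the class, since 109, 104 and 116 of the 200 were again among the 200 lowest. Replicates share their graft type and stage, and all had a part in the choice of the 200, so these values are no independent support for the list.

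What variation the stable transcripts kept was divided differently from that of other abundant transcripts. The variance of log2(TPM + 1) over the 45 libraries was split into parts between stages, between graft types, from their combination, and within groups. The median part between stages was 16.6% for the stable transcripts and 43.3% for all candidates. The median part between graft types was similar, at 17.6% and 17.8%. The combination of stage and graft type took 31.4% and 21.1%, and the spread within groups 25.9% and 11.1%. The rule acts on the total of these parts, so the shares are a description.

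On TPM the combination of stage and graft type was the largest part in 90 of the 200 stable transcripts. The stage was largest in 45, the replicates in 35 and the graft type in 30. Over all candidates, by contrast, the stage was the largest part in 61.8%. On the other scales described below, the median share of the combination lay close to that of the candidates. The within-group SD of the stable transcripts had a median of 0.0949, against 0.134 over candidates. Counting error alone gives a median SD of 0.0378 at the counts behind them, and the within-group SD was 1.22 to 5.94 times its counting error. In 163 of the 200 it was more than 2 times the counting error, so most of the spread between replicates was larger than depth alone would give.

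**Figure D3:**
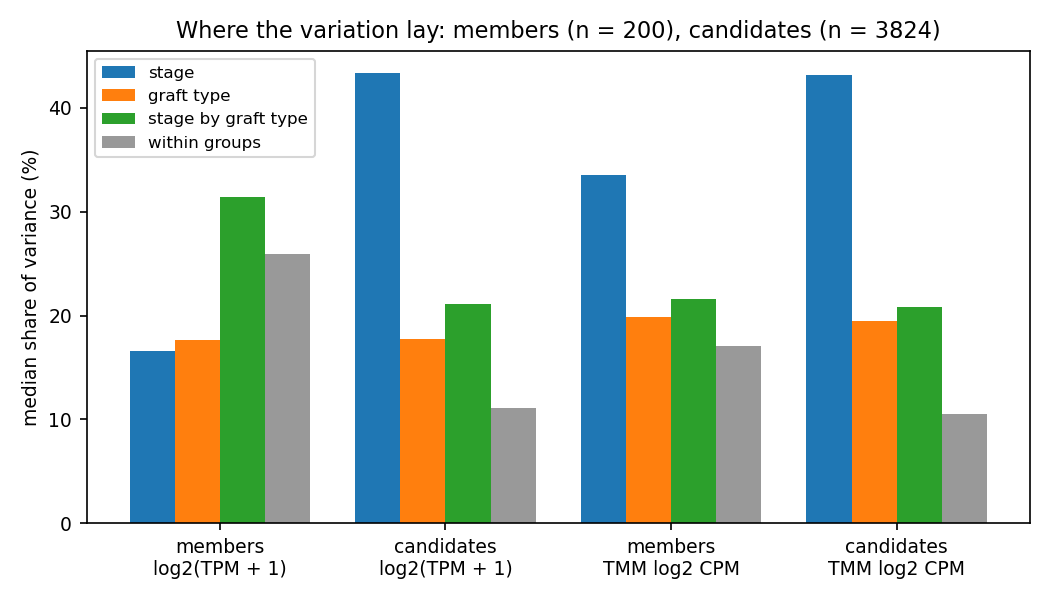
Median share of variance (percent) between stages, between graft types, from stage by graft type and within groups, for the 200 stable transcripts and the 3824 candidates, on log2(TPM + 1) and on log2 CPM (counts scaled to a total of 1000000) normalized by TMM (trimmed mean of M values, a scaling on the bulk of transcripts). The share between stages of the stable transcripts is 16.6% on TPM and 33.5% on TMM, and that of the candidates is 43.3% and 43.2%.

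The largest difference between the 3 stage means had a median of 0.144 on the log2 scale over the stable transcripts and did not exceed 0.322, against a median of 0.538 over candidates. It was under 0.1 in 54 of the 200 and under 0.2 in 152. VIT_01s0011g00870 had the largest stage difference, with lowest, median and highest levels of 25, 28.0 and 31.9 TPM at DAF45, 31.4, 33.9 and 38.1 TPM at DAF75 and 20.9, 27.1 and 30.2 TPM at DAF105. At DAF75 it stood above every library of DAF105. VIT_04s0044g01140 had the same form, with medians of 119, 138 and 115 TPM, and its DAF75 libraries (127 to 160 TPM) were above all those of DAF105 (94.1 to 123 TPM). VIT_13s0067g03440 had medians of 33.7, 37.4 and 30.2 TPM.

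The course over the stages depended on the scale. On TPM, 99 of the 200 stable transcripts had their highest stage mean at DAF75 (49.5%), as did 27.4% of all candidates. Of the rest, 42 fell at each step (38.7% of candidates), 34 were lowest at DAF75 (14.6% of candidates) and 25 rose at each step (19.2% of candidates). On TMM log2 CPM, 147 to 190 of the 200 were higher at DAF105 than at DAF75 in each graft type, whereas on TPM 35 to 144 were.

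The largest difference between the 5 graft type means had a median of 0.176 and a highest value of 0.345, against a median of 0.409 over candidates. CS/110R was the highest graft type in 79 of the 200 (39.5%; 21.8% of candidates) and CS/CS in 44 (22%; 32.5% of candidates). CS/CS was the lowest graft type in 70 (35.0%; 34.1% of candidates) and CS in 66 (33.0%; 20.5% of candidates). VIT_07s0197g00070 had the largest graft difference, with lowest, median and highest levels over 9 libraries of 24.7, 28.2 and 30.8 TPM in CS/CS and 32.8, 36.1 and 40.2 TPM in CS/110R, without overlap. VIT_13s0084g00580 was also low in CS/CS (62.7, 74.4 and 82.7 TPM) and high in CS/110R (89.1, 92.7 and 98.0 TPM). VIT_11s0052g00980 was low in CS (78.9, 88.6 and 98.6 TPM) and high in CS/110R (103, 112 and 127 TPM), again without overlap.

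Part of the remaining variation was shared by the stable transcripts, over whole groups as well as single libraries. In each library, the deviation of each stable transcript from its own mean log2(TPM + 1) was taken, and the median over the 200 ranged from −0.145 to 0.137. The same median over all candidates had a wider range, from −0.198 to 0.168, so such a shift was not particular to the stable transcripts. The highest was CS/CS at DAF75, replicate 1 (0.137), where 34 of the 200 reached their highest level, followed by CS/110R at DAF45, replicate 1 (0.116, 25 transcripts). The lowest was CS/101-14 at DAF45, replicate 2 (−0.145), where 21 reached their lowest level, and CS/CS at DAF105, replicate 1 (−0.122) held the minimum of 25. All 3 libraries of CS/CS at DAF105 were low (−0.122, −0.108 and −0.107, against −0.139, −0.147 and −0.154 over candidates). Those of CS/110R at DAF105 were high (0.111, 0.0868 and 0.0898), where the candidate medians were below 0 (−0.0351, −0.0658 and −0.0702). In 11 libraries none of the 200 was at its highest, and in 11 none was at its lowest.

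A component analysis of the 200 transcripts put 23.2% of their variance on a first component, on which 191 had the same sign and 9 the other. Taking the library median of the stable transcripts off each library lowered the median SD from 0.159 to 0.140, with a lower SD in 173 and no lower SD in 27. Averaging several stable transcripts lowered the spread only up to a point. The SD of the mean log2 level was 0.0926 for the 2 steadiest transcripts, 0.0793 for 3, 0.0683 for 5, 0.0687 for 10, 0.0663 for 50 and 0.0680 for all 200. Beyond 5 transcripts the spread of the average thus changed little, and the ratio of its highest to its lowest library was 1.24 for 5 transcripts and 1.20 for 200.

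Ratios between stable transcripts were also taken, pair by pair. Over the 19900 pairs, the SD of the log2 ratio ranged from 0.0765 to 0.316, with a median of 0.196. The steadiest ratio was that of VIT_01s0011g06540 to VIT_12s0035g00280, which stayed between 1.53 and 1.91 although each transcript alone had an SD of 0.157 and 0.169. Both were lower in CS at DAF75 (115, 116 and 120 TPM; 64.8, 67.9 and 73.2 TPM) than in CS/CS at DAF75 (157, 157 and 170 TPM; 94.6, 99.3 and 106 TPM). A steady ratio thus came from 2 transcripts that moved together and not from 2 that stood still. The least steady ratio was that of VIT_03s0038g01470 to VIT_04s0008g03100, from 0.282 to 0.677. VIT_03s0038g01470 had stage medians of 83.3, 87.1 and 97.3 TPM, while VIT_04s0008g03100 had medians of 214, 192 and 181 TPM.

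Which transcripts counted as stable depended strongly on how libraries were scaled. TPM fixes the total of each library, whereas TMM and the size factors of DESeq2 fix the level of the bulk of transcripts. The latter also start from counts not scaled for transcript length, so the library total behind them differs from that of TPM. The part of each difference was not tested. Of the 200 stable transcripts, 80 were again among the 200 lowest on TMM-normalized log2 CPM, 80 on DESeq2 size factors, and 78 on all 3 scales. The median SD of the 200 was 0.182 on TMM and 0.184 on DESeq2 size factors, and the median part between stages was 33.5% and 35.0% in place of 16.6%. The combination of stage and graft type took 21.6% and 21.5% in place of 31.4%, against 20.9% and 20.8% over candidates. On TMM the list still sat low, with a median rank of 274.5 among the 3824 candidates, but the lowest-placed of them had rank 1200. VIT_01s0011g06030, first on TPM, was 195th on TMM, VIT_18s0001g07280 was 330th and VIT_11s0016g03070 was 254th. VIT_03s0038g04270 was 32nd, VIT_08s0058g00820 38th and VIT_06s0004g02820 10th.

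The share of TPM held by the most abundant transcripts differed between stages and, at DAF75, between sets of graft types. The 100 transcripts highest in a library held 21% to 27.3% of its TPM at DAF45 in CS and CS/CS and 25.3% to 26.8% in the heterografts. At DAF75 they held 21.8% to 25.4% in CS and CS/CS and 32.8% to 40.4% in the heterografts, and at DAF105 38.8% to 44.5% and 40.2% to 44.5%. The 2 sets of libraries did not overlap at DAF75. The part of this share in the course of the stable transcripts was not tested.

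The change from DAF75 to DAF105 in CS is an example of a result that differed between scales. The median difference over the stable transcripts was −0.06 on log2(TPM + 1) and 0.32 on TMM log2 CPM, while that of all candidates was −0.29 and 0.09. A change of scale shifts all transcripts of a library alike, so the sign of such a median depends on the scale. For VIT_03s0038g04270 the difference was −0.41 on TPM and −0.02 on TMM, and for VIT_01s0011g06030 it was 0.06 and 0.46. Over the 22 comparisons of grafts with CS and of successive stages, the median absolute difference of the stable transcripts on TPM was between 0.06 and 0.22, against 0.13 to 0.50 for all candidates.

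**Figure D4:**
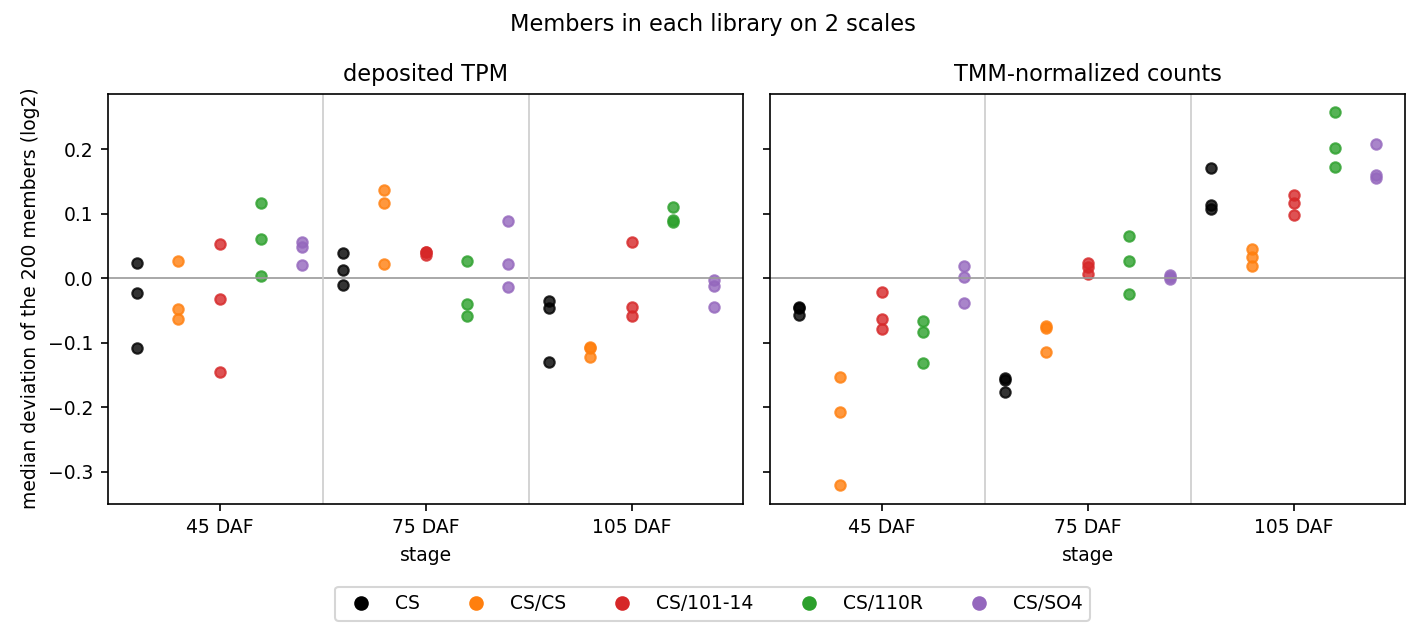
Median deviation of the 200 stable transcripts from their own mean (log2) in each library, by stage and graft type, on the deposited TPM (left) and on TMM-normalized counts (right). On TPM the libraries spread from −0.145 to 0.137 with no common course, whereas on TMM those at DAF105 lie highest in each graft type.

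Counts were also compared between groups with edgeR's quasi-likelihood test, with p-values adjusted by Benjamini-Hochberg over all transcripts tested and a call where the log2 fold change was over 1 in size with an adjusted p of 0.05 or less. In the 12 comparisons of a grafted type with CS at the same stage, 0 of the 200 stable transcripts were called, against 50.1% of all transcripts tested. In the 10 comparisons between successive stages 0 of 200 were called as well, against 61.2% of all. DESeq2 also called 0 in both sets. At an unadjusted p under 0.05 and any fold, 11 (5.5%) to 157 (78.5%) of the 200 passed in a single comparison, and 16.9% and 70.8% of all transcripts tested passed in the same 2 comparisons. The libraries of these comparisons are those that chose the transcripts, so nothing is read from the counts.

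The largest fitted log2 fold change of any stable transcript was 0.88, that of VIT_14s0006g02620 from DAF75 (32.8, 34.6 and 36.2 TPM) to DAF105 (42.4, 47.0 and 52.8 TPM) in CS. The same step was 0.44 on log2(TPM + 1). The median over the 200 of each transcript's largest absolute log2 fold change was 0.45, and 127 of the 200 stayed under 0.5 in all 22 comparisons. At an adjusted p of 0.05 or less with no limit on fold, 165 of the 200 passed in at least 1 of the 12 comparisons with CS (88.2% of all transcripts tested) and 185 in at least 1 of the 10 between stages (93% of all). With all libraries kept, these shares of the 200 lay near those of all transcripts. Without replicate 3 the counts were 90 and 135, against 13440 of 18774 and 15244 of 18992 of all transcripts tested. Without replicate 1 they were 103 and 158, against 13249 of 18801 and 15630 of 18982. Without replicate 2 they were 121 and 156, against 13363 of 18757 and 15071 of 18934.

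In single comparisons the passing transcripts mostly moved one way on the TMM scale of the test. From DAF75 to DAF105 in CS, 149 of the 200 passed (68% of all transcripts tested), and all 149 were higher at DAF105. On TPM, 125 of the 200 were lower at DAF105 in the same libraries. Over the same step 97 passed in CS/110R (53.8% of all), 88 in CS/SO4 (49.9% of all), 38 in CS/101-14 (31.8% of all) and 34 in CS/CS (49.3% of all). At DAF75, 102 passed in CS/101-14 against CS (64.3% of all), 102 in CS/110R (60.5% of all) and 85 in CS/SO4 (56.5% of all), of which 100, 101 and 84 were higher in the heterograft. These 3 comparisons share the CS libraries. On TPM, 110, 82 and 103 of the 200 were higher in the heterograft. At DAF45, 48 passed in CS/CS against CS (38.9% of all), and 47 of them were lower in CS/CS, whereas 101 of the 200 were higher on TPM. In CS/101-14 against CS at that stage edgeR passed 0 (0.161% of all) and DESeq2 1, while 11 had an unadjusted p under 0.05.

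A group of 7 stable transcripts, picked out after their values were seen, passed in none of the 22 comparisons at any fold by edgeR. DESeq2 likewise passed each of the 7 in 0 of 22, and at an unadjusted p under 0.05 each passed in 0 to 3. How many of all transcripts tested passed in none of the 22 was not counted, so this is not read as particular to the 7. All 7 were among the 200 lowest on all 3 scales. They were VIT_06s0004g02820, VIT_19s0135g00070, VIT_18s0001g09320, VIT_07s0031g01730, VIT_05s0051g00850, VIT_16s0039g02780 and VIT_11s0016g00700, at ranks 9, 28, 145, 146, 155, 184 and 196 by SD on TPM. On TMM their ranks were 10, 41, 9, 81, 20, 44 and 2, so some transcripts near the end of the list were among the steadiest on that scale. The test that picked the 7 used TMM on the same libraries and so favours a small spread on that scale. Their TMM ranks and their place on all 3 scales are therefore no added support.

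Of these 7, VIT_06s0004g02820 was the only one among the 10 lowest on both TPM and TMM. Its levels were 27.4 to 35.3 TPM at DAF45, 28.9 to 38.2 TPM at DAF75 and 25.7 to 31.9 TPM at DAF105, and its largest fitted log2 fold change was 0.24. VIT_11s0016g00700 was second on TMM. On TPM it had medians of 45.9, 42.8 and 36.6 TPM, and in CS it was at 46.2, 49.5 and 56.0 TPM at DAF75 and at 35.2, 35.5 and 36.6 TPM at DAF105, a difference of −0.48 on log2(TPM + 1) and of −0.10 on TMM log2 CPM. The groups did not overlap on TPM, so the size of the step depended on the scale. VIT_16s0039g02780 was the most abundant of the 7, at 301 to 420 TPM at DAF45, 326 to 416 TPM at DAF75 and 249 to 363 TPM at DAF105. VIT_19s0135g00070 had the smallest ratio of highest to lowest library of the 7, at 1.39, from 65.6 to 91.5 TPM.

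The genes chosen for RT-qPCR in the study were picked for differing between groups, and they are given here for scale. Over all 19 the SD ran from 0.329 for OMTF3 to 3.91. None was on the list (0 of 19), from which nothing is read, because the list holds 200 of 29958 transcripts. The 5 with at least 20 TPM in every library have a rank among the candidates. Those ranks by SD among the 3824 candidates ran from 3573 for F3H, with an SD of 0.892, to 3805 for UBC28, with an SD of 1.53. F3H converts flavanones on the way to anthocyanins and had medians of 215, 525 and 688 TPM at DAF45, DAF75 and DAF105. UBC28, a ubiquitin-conjugating enzyme, had medians of 1642, 504 and 172 TPM. At DAF75 UBC28 was at 2212, 2215 and 2256 TPM in CS and at 260, 260 and 290 TPM in CS/101-14. No stable transcript differed by 2 times between any 2 libraries. Both sides were chosen for their spread, so nothing is read from the contrast. The other 3 were ACBP6, EXPA11 and BHLH77 with SDs of 0.992, 1.24 and 1.43. The transcript of the reference gene of the RT-qPCR assays was not analysed here, because the sources used give its primers and no identifier.

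The list itself was tried under other choices. A count minimum of 100 in every library kept all 200, a pseudocount of 0.1 in place of 1 kept 195, and the coefficient of variation in place of the SD kept 186. A lower minimum of 10 TPM widened the candidates to 6433 and kept 149, while a minimum of 50 TPM left 1495 candidates and kept 91. Leaving out 1 stage kept 114 (DAF45), 123 (DAF75) or 129 (DAF105) of the 200. Without CS/CS, 135 were kept. Without CS/CS at DAF75 replicate 1, the highest library, 186 were kept. The choice of scale therefore changed more of the list than leaving out a stage, CS/CS or a single library did.

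**Figure D5:**
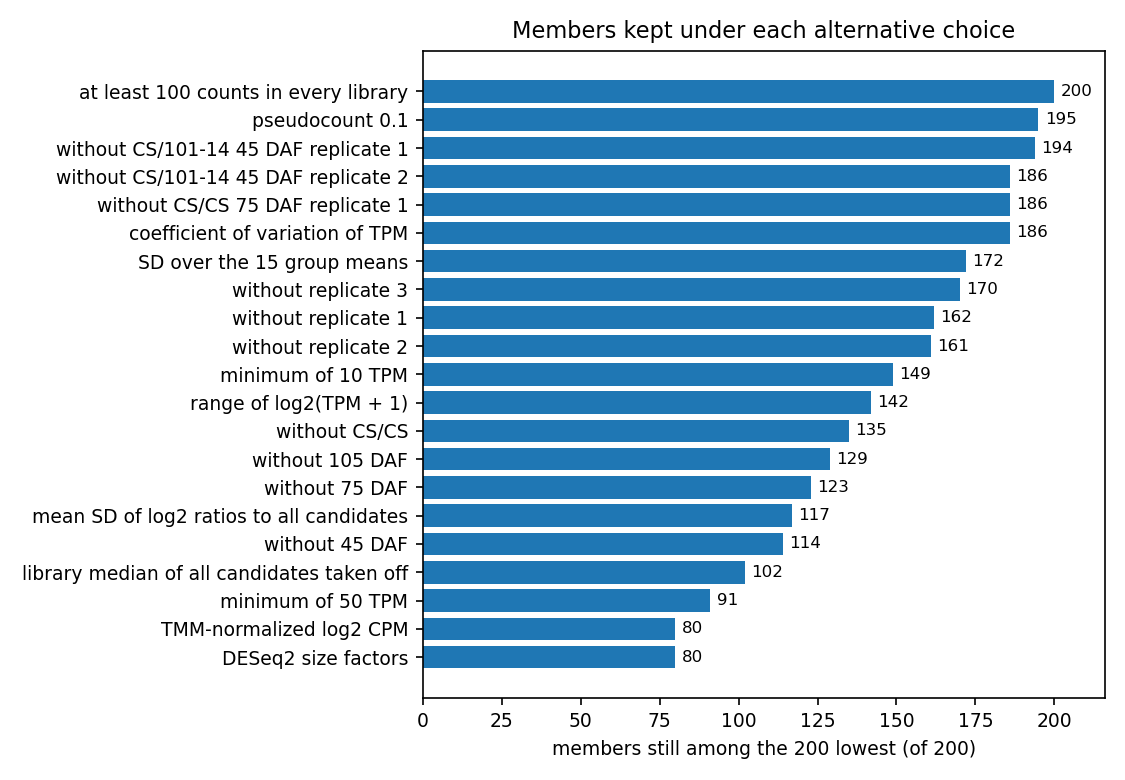
Number of the 200 stable transcripts still among the 200 lowest under each alternative choice (bars from 0, value at the bar end). The bars run from 200 with a minimum of 100 counts down to 80 on TMM-normalized log2 CPM and on DESeq2 size factors.

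By the chromosome field of their identifiers, the stable transcripts lay on all 19 chromosomes, with 6 unplaced. Chromosome 7 held the most, with 17 of 218 candidates (7.80%), and chromosome 10 the fewest, with 2 of 120 (1.67%). On chromosome 9 they made up 15 of 136 candidates (11%), the highest share. Among them were VIT_09s0002g00780, VIT_09s0002g02500 and VIT_09s0002g02600, which carry the same scaffold number. The counts behind a given TPM rise with transcript length, and by that measure the stable transcripts were 1.20 times the median candidate at their median. The part of length in their small spread was not tested.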

How the data were processed

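Berry skin mRNA was sequenced from 45 samples. Their titles, read with a note of the study, gave the graft type and stage, and 0 columns were left without a sample. Read trimming with fastp, HISAT2 alignment to the 12X grapevine assembly, transcript assembly by StringTie and HTSeq counting were done by the authors, and no versions are given in the sources used here. The table of expected counts was deposited by the authors with no normalization. Of its values above 0, 87.6% are whole numbers, the tool behind the fractions is not given in the sources used here, and all were rounded before testing. TPM values were deposited by the authors as well, and each library sums to 1000000. No identifier matched the 29591 entries of the gene table (0 of 29958), so the lists of gene products and tissue markers set out for this work could not be applied.

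The SD of log2(TPM + 1) was computed in Python 3.11.15 with pandas 2.3.3 and numpy 2.4.6, and figures were drawn with matplotlib 3.10.9. Tests used edgeR 4.0.16 in R 4.3.3, with TMM normalization keeping transcripts that reached 10 counts in 3 or more of the compared libraries, and DESeq2 1.42.0 as an alternative. On simulated data for CS/CS against CS at DAF75, edgeR recovered 200 of 200 transcripts changed by a log2 fold change of 2, with 2 false calls among 18001. Counts differed by more than sampling noise in every pair of replicates (chi-square per degree of freedom of 7.08 to 169), so no library was taken as deposited in duplicate. Replicate numbers were not used to pair samples, and each p-value sets a difference between groups against the spread between these samples only.

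Named transcripts were the 10 of lowest SD, the 5 of highest mean TPM, the 3 on each side of the threshold, the 3 with the largest stage and graft differences, and the genes of the RT-qPCR assays. Others named were chosen after their values were seen. The transcripts and lists were chosen with earlier results of these data known. Total counts of 16387269 to 20765329 set the precision, and counting errors quoted cover counting only. Alternatives covered the minimum level, pseudocount, scale, measure of spread and libraries left out.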

Additional observations from a re-analysis of the deposited data

Results flagged for a closer look

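Only the median of the stable transcripts and the 3 transcripts of lowest SD were searched for opposite movement, and only on log2(TPM + 1). In 5 results of that search, every library of 1 graft type moved one way and every library of another the opposite way. The 5 are no total, since VIT_08s0058g00820, outside the search, also fell from DAF75 to DAF105 in CS and rose in CS/110R, without overlap. None of these differences was tested. In each library the median deviation of the stable transcripts on log2(TPM + 1) was taken, and its mean over 3 libraries fell by 0.0846 from DAF75 to DAF105 in CS and rose by 0.120 in CS/110R, a difference of −0.205. In CS/CS it was −0.204, a difference of −0.324 from CS/110R. On TMM log2 CPM the libraries of DAF105 lay above those of DAF75 in all 3 graft types.

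VIT_01s0011g06030 changed by −0.254 from DAF75 to DAF105 in CS/CS and by 0.0620 in CS/SO4, a difference of −0.317. VIT_11s0016g03070 changed by 0.237 in CS and by −0.142 in CS/101-14 over the same step, a difference of 0.378. Read the other way, CS/101-14 less CS was 0.134 at DAF75 and −0.244 at DAF105, the same difference of 0.378. All these values are on log2(TPM + 1), and opposite directions on TPM need not hold on TMM. From DAF75 to DAF105 the median difference of the stable transcripts on TPM was −0.06 in CS, −0.21 in CS/CS, −0.06 in CS/101-14 and −0.04 in CS/SO4. On TMM it was 0.32, 0.11, 0.09 and 0.18. In CS/110R it was above 0 on both scales (0.10 and 0.18).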

How the results depend on the processing

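Of the 200 stable transcripts, 91 were kept with a minimum of 50 TPM, 80 on TMM, 80 on DESeq2 size factors, 114, 123 and 129 without DAF45, DAF75 and DAF105, 117 by the mean SD of ratios to all candidates, and 102 with the library median of all candidates taken off (the last pair of choices made after seeing the data). Leaving out a replicate of every group kept 161 to 170. Leaving out CS/CS at DAF75 replicate 1 or CS/101-14 at DAF45 replicates 1 or 2, also chosen after seeing the data, kept 186 to 194. The median SD of 0.159 became 0.182 on TMM, 0.184 on DESeq2 size factors, 0.167 with the library median off and 0.149 without CS/CS, and was 0.155 to 0.160 without a replicate. The stage share of 16.6% became 33.5%, 35.0%, 34.5% and 20.4% in the same order, and 16% to 18.3% without a replicate. Calls past the fold limit stayed at 0 under every alternative tried for the 12 and for the 10 comparisons. The rule chose the transcripts for a small spread over these same libraries, so nothing is read from that 0. With no limit on fold the calls were 165 and 185 of the 200 (88.2% and 93% of all transcripts tested). Without a replicate they were 90 to 121 and 135 to 158 of the 200. Of all transcripts, 13249 to 13440 of 18757 to 18801 tested and 15071 to 15630 of 18934 to 18992 tested passed. A single fit of all libraries gave 192 and 196, against 18623 and 19330 of 20158 tested.

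Same-numbered replicates did not deviate together in most comparisons. Of 66 correlations between same-numbered samples, 22 were over 0.1, with a range of −0.50 to 0.61, and all 3 pairs were over 0.1 in 1 of 22 comparisons (CS/110R against CS at DAF105). With the replicate block, 0 and 0 stable transcripts were called, and 144 and 170 at any fold. Of all transcripts tested, 16390 of 19633 and 17538 of 19675 passed at any fold with that block. The lowest count of a listed transcript in any library was 237.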
